A study of Mus musculus with 12 samples.

Results

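The 10 genes described here (Gdf15, Mstn, Fgf21, Fgf1, Fstl1, Fstl3, Il15, Igf1, Vegfb and Ctgf) encode secreted proteins that could carry a signal from the heart to other organs. They were listed by symbol, each was found on 1 row of both expression tables, and they are 10 of the 23042 entries in each table. The question follows from the study, which points to a circulating signal from transgenic hearts that acts on fat. RNA was sequenced from both ventricles and from epididymal white adipose tissue (WAT) of WT mice and of MED13cTg mice, which carry a MED13 transgene in the heart, with 3 mice per genotype and tissue and 1 library per mouse. All were male C57BL/6 littermates, 6 weeks old by the labels, on normal chow and fed ad libitum. The sources used here do not give the promoter of the transgene, and the labels do not say whether fat and ventricles came from the same mice. Expression is in FPKM, fragments scaled to transcript length and library size, so levels can be compared between genes.

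Hormones and growth factors made by muscle, liver and fat act on distant tissues, and the heart is itself an endocrine organ through its natriuretic peptides. GDF15 is a stress-induced member of the TGF-β superfamily that reduces food intake through a receptor in the hindbrain. Myostatin, encoded by Mstn, limits muscle mass and signals through activin type II receptors, and follistatin-like 3 binds and neutralizes myostatin and activin. FGF21 is a fasting hormone of liver and fat that needs the co-receptor β-Klotho, whereas FGF1 binds all FGF receptors. IL-15 and IGF-1 act on lymphocytes and on growth, VEGF-B is abundant in the heart and binds VEGF receptor 1, and CTGF is a matrix-associated protein induced by TGF-β and YAP.

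Med13 checked the labels: it rose in ventricles (log2 fold change 4.08, adjusted p = 0.000281 by limma) and was not called in WAT (-0.046, adjusted p = 0.943). It was at 13.1, 10.6 and 11.5 FPKM in the WT mice against 263, 181 and 204 FPKM in MED13cTg ventricles, whereas in WAT it was at 10.9, 9.43 and 9.99 FPKM in the WT mice against 7.84, 11 and 10.7 FPKM in MED13cTg mice. Ventricular cardiomyocyte markers summed to between 62715 and 91307 FPKM in ventricles and to at most 55.6 FPKM in WAT, and 6 atrial genes summed to 747, 496 and 452 FPKM in the WT mice against 998, 2450 and 1165 FPKM in MED13cTg ventricles. Of these 6, the natriuretic peptide gene Nppa alone was higher without overlap, at 564, 408 and 368 FPKM in the WT mice against 892, 1770 and 1090 FPKM, whereas Myl7 was high in MED13cTg replicate 2 at 322 FPKM and between 20.9 and 63.5 FPKM in the other libraries. By rank correlation the 6 ventricle libraries formed 2 clusters, each with both genotypes: WT replicate 1 with MED13cTg replicates 1 and 2, and WT replicates 2 and 3 with MED13cTg replicate 3. In WAT, MED13cTg replicates 1 and 2 stood apart. The sum of 12 mature adipocyte markers was 15408, 36586 and 24985 FPKM in the WT mice against 1622, 95824 and 19898 FPKM in MED13cTg WAT. The sum of 18 epididymis markers was 109086, 101369 and 130625 FPKM in the WT mice against 16631, 346 and 100578 FPKM in MED13cTg WAT, and that of 7 germ cell markers was 213 to 303 FPKM in the WT mice against 13638, 5.83 and 344 FPKM in MED13cTg WAT. Sequencing depth, as a share of that of WT replicate 1, lay between 0.918 and 1.02 in ventricles. In WAT it was 0.662 in MED13cTg replicate 1, 0.756 in MED13cTg replicate 2 and between 0.873 and 0.924 in the rest. FPKM do not give the absolute depth.

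In ventricles, the 10 genes spanned from among the most abundant RNAs to none detected. Vegfb stood above 98.5% of all entries in WT hearts, Fgf1 above 95.7%, Ctgf above 93.5%, Fstl1 above 92.7% and Il15 above 90.6%. The order of WT means ran from Vegfb at 353 FPKM through Fgf1 at 112, Ctgf at 71.8, Fstl1 at 63.2, Il15 at 48 and Igf1 at 4.53 FPKM to Gdf15 at 1.32, Fstl3 at 0.999 and Mstn at 0.336 FPKM, with Fgf21 last. The WT ranges overlapped between Ctgf and Fstl1, between Fstl1 and Il15, and between Gdf15 and Fstl3; the other neighbours in this order did not overlap. Little RNA of Fgf21 and Mstn was found in the heart. Fgf21 was at 0.101 FPKM in WT replicate 1 and listed at 0 in the other 5 ventricle libraries, and Mstn did not exceed 0.476 FPKM.

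None of the 10 genes was called in MED13cTg ventricles, and 3 of them (Mstn, Fgf21 and Fstl3) were too low to be tested. Of the 7 that passed the filter of a mean of 1 FPKM, 0 were called in either direction at an adjusted p under 0.05 (limma on log2(FPKM + 1), Benjamini-Hochberg adjustment over all 12589 genes tested), where 0.0556% of all genes were called (0.0238% higher and 0.0318% lower). At an unadjusted p under 0.05, 2 of the 7 were lower and 0 were higher, against 3.03% and 1.69% of all genes and 4.73% in either direction. The median log2 fold change of the 7 was -0.24, with 5 below 0, and that of all genes tested was -0.014, with 6707 below 0. This median was 0.0042 with limma array weights. Without WT replicate 1, Gdf15 fell under the filter, and the median of the 6 genes left was -0.051. In 3 of the 10 (Il15, Fgf1 and Mstn) all MED13cTg mice lay below all WT mice, and in 0 all lay above. Of these, 2 were among the 7 tested. Among all genes tested 5.85% were lower without overlap, 3.46% higher and 9.31% either. Within the cluster of WT replicate 1, where 1 WT library stands against 2 MED13cTg libraries, 5 of the 7 were lower without overlap and 1 was higher, against 36.7% and 26.3% of all genes tested. Within the other cluster 3 were lower and 0 higher, against 40.8% and 29.6%. The 3 that were lower within both (Gdf15, Fgf1 and Il15) compare with 17.4% of all genes. Gdf15 passed the filter only with WT replicate 1 included.

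**Figure D1:**
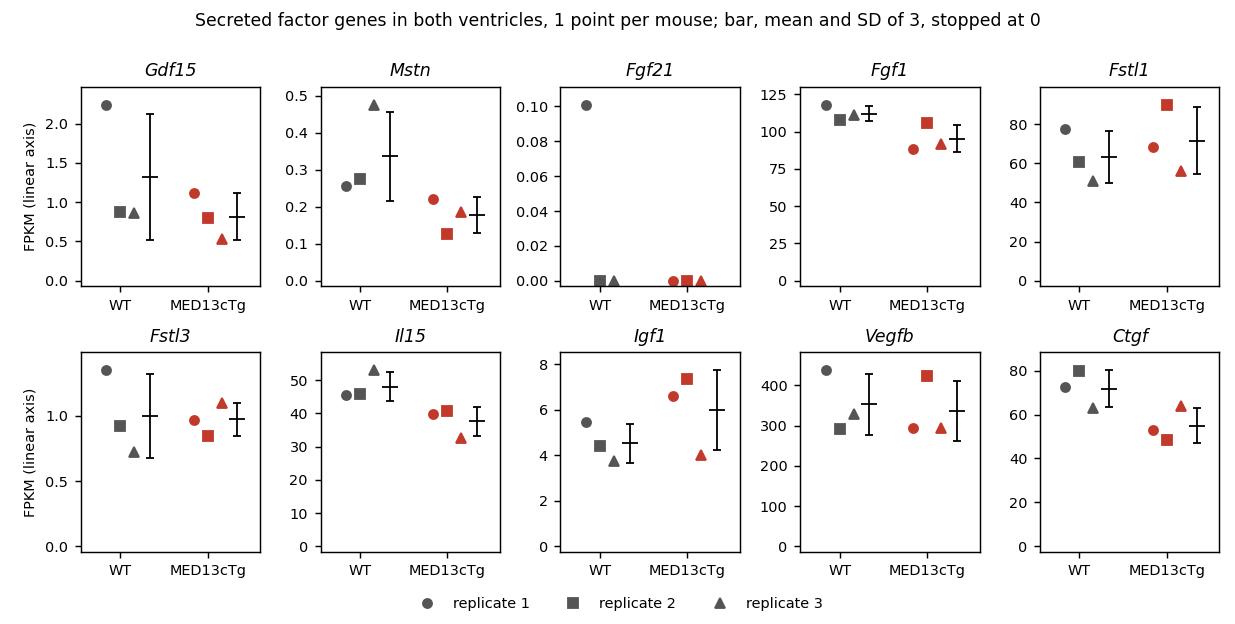
FPKM of the 10 secreted factor genes in both ventricles (linear axes from 0), with 1 point per mouse, grey for WT and red for MED13cTg, shapes for replicate numbers, and bars for the mean and SD of 3 mice, stopped at 0 and left out where a library is listed at 0. Il15, Fgf1 and Mstn show no overlap between the genotypes, and in Ctgf only WT replicate 3 at 62.9 FPKM and MED13cTg replicate 3 at 63.7 FPKM cross.

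Il15 encodes a cytokine of muscle and immune cells that sustains natural killer and memory T cells. Its gene lies at chr8:84855523-84926891 (mm9, as in the deposited tables). It was at 45.4, 45.7 and 53 FPKM in the WT mice against 39.7, 40.6 and 32.6 FPKM in MED13cTg ventricles. The MED13cTg mice were all lower, and the gap between the groups was narrower than the spread within either. The WT mean of 48 ± 4.3 FPKM (SD, n = 3) compared with 37.6 ± 4.35 FPKM (SD, n = 3) in transgenic hearts, a log2 fold change of -0.35 (standard error 0.13, adjusted p = 0.966). Over the 15 alternatives its log2 fold change stayed between -0.40 and -0.25, with adjusted p from 0.145 to 1. Within the cluster of WT replicate 1 the genotypes differed by -0.17 on the log2 scale and within the other cluster by -0.58, and in each the MED13cTg libraries were below the WT libraries.

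Il15ra, the receptor chain that presents IL-15 to neighbouring cells, was at 35.7, 28.7 and 33.4 FPKM in the WT mice against 27.1, 34.9 and 32.5 FPKM in MED13cTg ventricles, so the genotypes overlapped for the receptor. Il2rb, a signalling chain shared with the IL-2 receptor, was under 1 FPKM in every ventricle library.

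Fgf1, a growth factor without a classical signal peptide, was at 118, 108 and 111 FPKM in the WT mice against 88.4, 106 and 91.6 FPKM in MED13cTg ventricles. MED13cTg replicate 2 came close to the lowest WT mouse, and the groups did not overlap. The log2 fold change was -0.24 (standard error 0.12, 95% interval -0.52 to 0.044, adjusted p = 0.966), with values of -0.28 and -0.25 within the 2 library clusters and of -0.31 to -0.16 over the alternatives. Its locus overlaps that of Gm5820, and whether strand was used in counting is not given in the sources used here, so its reads cannot be told apart from those of that entry. Fgfr1, its most abundant receptor in ventricles, was at 16.9, 10.5 and 11.1 FPKM in the WT mice against 12.9, 13.8 and 10.9 FPKM in MED13cTg mice, with overlap.

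Ctgf, at chr10:24315248-24318488 (mm9), was at 72.7, 79.8 and 62.9 FPKM in the WT mice against 52.8, 48.5 and 63.7 FPKM in MED13cTg ventricles. MED13cTg replicates 1 and 2 were below all WT mice, and MED13cTg replicate 3 was just above WT replicate 3. The means were 71.8 ± 8.46 and 55 ± 7.84 FPKM (SD, n = 3), with a log2 fold change of -0.38 (standard error 0.15, adjusted p = 0.966; the alternatives gave 0.105 to 1). Within the cluster of WT replicate 1 the difference was -0.51 and within the other -0.15. Fibroblast markers, genes of the cells that produce much of the heart's CTGF, summed to 1072, 893 and 853 FPKM in the WT mice against 786, 1153 and 859 FPKM in MED13cTg ventricles. In MED13cTg replicate 2 the fibroblast sum was the highest and Ctgf the lowest of the 6 libraries. In RNA of whole tissue, fewer cells of a type and less RNA per cell cannot be told apart.

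Cyr61, the closest relative of Ctgf among the genes examined and a target of the same pathways, was at 28.2, 23.1 and 21.1 FPKM in the WT mice against 25, 29.7 and 28.7 FPKM in MED13cTg ventricles; its genotypes overlapped. Tgfb1, an inducer of Ctgf, was at 30.9, 20.3 and 19.8 FPKM in the WT mice against 24.1, 36.5 and 17.6 FPKM in MED13cTg ventricles, also with overlap. The other CCN genes listed lay on both sides. The mean went from 2.46 to 2.15 FPKM for Nov, from 1.04 to 0.786 FPKM for Wisp1 and from 4.36 to 6.86 FPKM for Wisp2, and among the TGF-β ligands from 2.29 to 2.73 FPKM for Tgfb2 and from 8.5 to 7.83 FPKM for Tgfb3, each with overlap.

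Vegfb, at chr19:7056962-7062141 (mm9), was the most abundant of the 10 genes in both tissues. It was at 438, 291 and 329 FPKM in the WT mice against 293, 423 and 295 FPKM in MED13cTg ventricles. Each genotype held 1 high and 2 lower libraries, and the log2 fold change of -0.066 had a 95% interval from -0.59 to 0.46 (adjusted p = 0.979), so that the mean could be as low as 0.666-fold or as high as 1.37-fold. Its sign changed under 5 alternatives listed among the effects of processing. Of its receptors, Nrp1, whose reads share an entry with Mir1903, was at 41.3, 33.1 and 35.2 FPKM in the WT mice against 42.6, 53.8 and 34.5 FPKM in MED13cTg ventricles. Flt1, which encodes VEGF receptor 1, was at 30.1, 36.4 and 34.2 FPKM in the WT mice against 21.8, 25.7 and 34.2 FPKM in MED13cTg ventricles. Both receptors overlapped between genotypes.

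Igf1 and Fstl1 were separated by library cluster, whereas their genotypes overlapped. Igf1, the growth factor made by liver and locally by fibroblasts and macrophages, was at 5.45, 4.39 and 3.74 FPKM in the WT mice against 6.59, 7.36 and 4.02 FPKM in MED13cTg ventricles. Fstl1, a glycoprotein released by cardiac cells, was at 77.6, 60.7 and 51.1 FPKM in the WT mice against 68.5, 89.9 and 56 FPKM in MED13cTg ventricles. For both genes WT replicate 1 and MED13cTg replicates 1 and 2 lay above the other 3 libraries without overlap, as they did in 23.1% of all genes tested. The genotypes themselves overlapped, with log2 fold changes of 0.32 for Igf1 (95% interval -0.20 to 0.84, adjusted p = 0.966) and 0.17 for Fstl1 (95% interval -0.36 to 0.70, adjusted p = 0.966). Within the clusters the differences were 0.31 and -0.0085 for Igf1 and 0.016 and 0.0065 for Fstl1. In the cluster of WT replicate 1, both MED13cTg libraries were above the WT library for Igf1. Macrophage markers summed to 525, 380 and 355 FPKM in the WT mice against 582, 553 and 415 FPKM in MED13cTg ventricles. The same 3 libraries were highest. Endothelial markers, at 653, 527 and 452 FPKM in the WT mice against 543, 735 and 522 FPKM, were also highest in these libraries. The fibroblast sum was instead lowest in MED13cTg replicate 1, at 786 FPKM. The part of these sums in the Igf1 values was not tested.

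Dip2a, a reported receptor of FSTL1, was at 6.06, 5.15 and 5.78 FPKM in the WT mice against 6.56, 6.72 and 6.1 FPKM in MED13cTg ventricles. All MED13cTg mice lay above all WT mice, by a log2 fold change of 0.16 (standard error 0.10, adjusted p = 0.966).

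The other 4 genes were low in ventricles. Gdf15, at chr8:73153293-73155534 (mm9), was at 2.24, 0.869 and 0.861 FPKM in the WT mice against 1.12, 0.796 and 0.527 FPKM in MED13cTg ventricles. WT replicate 1 was the highest, and the other 5 libraries lay between 0.527 and 1.12 FPKM (log2 fold change -0.32, 95% interval -0.94 to 0.30, adjusted p = 0.966). Without WT replicate 1 the mean of Gdf15 fell under the filter, so no fit left that library out. Without overlap, MED13cTg libraries were below WT libraries within both clusters, by -0.73 and -0.29 on the log2 scale. Fstl3, whose locus overlaps that of Prss57, was at 1.35, 0.923 and 0.722 FPKM in the WT mice against 0.968, 0.845 and 1.1 FPKM in MED13cTg ventricles, with overlap.

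Mstn, at chr1:53118507-53124923 (mm9), was at 0.257, 0.274 and 0.476 FPKM in the WT mice against 0.221, 0.126 and 0.187 FPKM in MED13cTg ventricles. The MED13cTg mice were all lower, at 0.178 against 0.336 FPKM in the means, but these values lay under the 1 FPKM filter and were not tested. The smallest of them rest on few fragments. Its promoter is shown because the gene was lower in each MED13cTg heart. Matches to the E-box, a general site of bHLH factors (CANNTG on either strand), are in capitals. The sequence holds the 250 bases upstream of the RefSeq start site, at chr1:53061390-53061639 on the plus strand of GRCm38.p6.
Mstn: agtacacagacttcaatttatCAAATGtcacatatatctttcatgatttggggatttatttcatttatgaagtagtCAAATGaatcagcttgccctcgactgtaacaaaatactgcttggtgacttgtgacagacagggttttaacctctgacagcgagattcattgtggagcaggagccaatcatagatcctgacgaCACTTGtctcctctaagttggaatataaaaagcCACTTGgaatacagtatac
The window holds 4 E-boxes, the first beginning 229 bases and the last 19 bases upstream of the start. Of 32851 promoter windows of this length, 66.2% hold at least 1 E-box and 3.84% at least 4. Of the 7 genes of the list with a window in the table (Fgf1, Il15 and Ctgf are the other 3), 6 hold a match. A match is a description of the letters and not a site of binding.

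Receptors that myostatin uses were present in ventricles, and none was called. Acvr2a was at 5.59 to 7.15 FPKM in the WT mice against 5.28 to 6.95 FPKM in MED13cTg ventricles, and Tgfbr1 at 10.1 to 11.5 FPKM in the WT mice against 8.91 to 11.5 FPKM in MED13cTg ventricles, both with overlap.

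**Figure D2:**
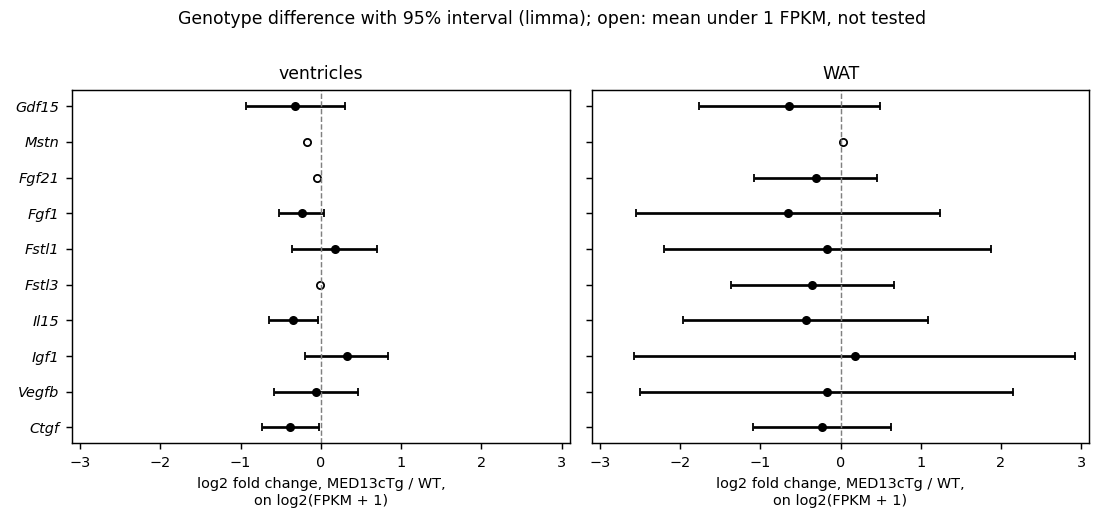
Log2 fold change of MED13cTg against WT on log2(FPKM + 1) for each of the 10 genes in ventricles (left) and WAT (right), with 95% intervals from limma and open points for genes under a mean of 1 FPKM, which were not tested. In ventricles, the intervals of Il15 and Ctgf, -0.65 to -0.039 and -0.73 to -0.026 before adjustment for multiple testing, lie below 0, and in WAT every interval spans 0.

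In WAT, the same 10 genes were compared in the tissue that the study proposes as a target. The epididymis sum of the WT libraries (101369 to 130625 FPKM) was above their adipocyte sum (15408 to 36586 FPKM). It was also above it in MED13cTg replicates 1 and 3, but not in MED13cTg replicate 2. The WAT values, those of the WT mice included, are thus of the tissue as dissected and not of fat alone. The tables of the tissues were estimated separately, so levels are given side by side without a test. The WT order in WAT began with Vegfb at 57.5, Fstl1 at 45.5, Igf1 at 21.6, Fgf1 at 19 and Ctgf at 18.6 FPKM, with overlapping ranges between neighbours. Il15 at 7.01, Fstl3 at 2.53, Gdf15 at 1.65 and Fgf21 at 1.53 FPKM followed, with overlap between Fstl3 and Gdf15 and between Gdf15 and Fgf21, and Mstn was listed at 0 in each WT library. Vegfb, Fgf1, Ctgf, Fstl1, Il15 and Mstn thus had higher WT means in ventricles than in WAT, and Igf1, Fstl3, Gdf15 and Fgf21 lower ones. The WT ranges of the tissues overlapped for Gdf15 (0.861 to 2.24 FPKM in ventricles, 0.667 to 3.02 FPKM in WAT). They also overlapped for Fstl1 (51.1 to 77.6 FPKM in ventricles, 31.1 to 56.3 FPKM in WAT).

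None of the 10 genes was called in MED13cTg WAT, and Mstn was too low to be tested. Of the 9 tested, 0 passed an adjusted p under 0.05 (limma, 14967 genes tested) and 0 an unadjusted p under 0.05, where 0.0134% and 1.25% of all genes did (0.0134% and 1.11% lower, 0% and 0.14% higher). The median log2 fold change of the 9 was -0.31, with 8 below 0, and that of all genes tested was 0.012, with 7376 below 0. It was 0.20 without MED13cTg replicate 1, -0.86 without MED13cTg replicate 2, and 0.015 without both, when MED13cTg replicate 3 alone stands for its genotype. In 1 of the 9 genes, Fgf21, all MED13cTg mice lay below all WT mice, and in 0 all lay above, against 7.8% and 4.88% of all genes tested and 12.7% in either direction. Without WT replicate 2, or without MED13cTg replicate 1, this count was 2, with Gdf15 added. Groups of fewer libraries separate more easily, and the share of all genes was not counted in these settings.

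**Figure D3:**
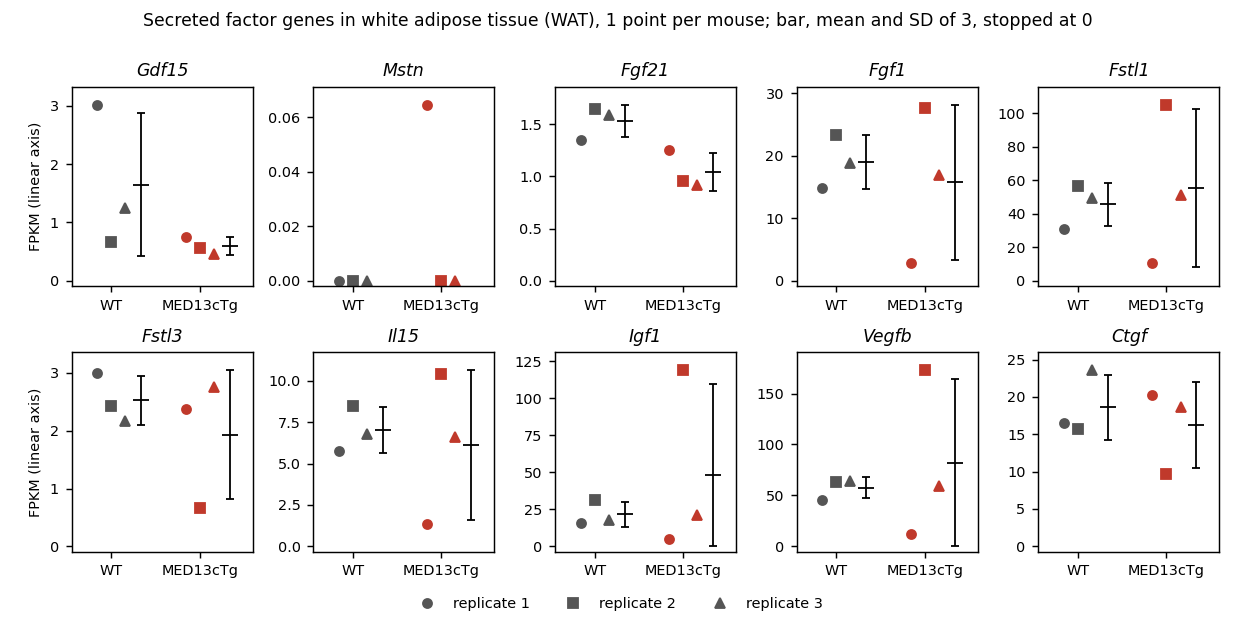
FPKM of the 10 secreted factor genes in WAT (linear axes from 0), with 1 point per mouse, grey for WT and red for MED13cTg, shapes for replicate numbers, and bars for the mean and SD of 3 mice, stopped at 0 and left out where a library is listed at 0. MED13cTg replicates 1 and 2 are the lowest and the highest library for Fgf1, Fstl1, Il15, Igf1 and Vegfb, and Fgf21 shows no overlap between genotypes.

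Fgf21, at chr7:52869260-52870860 (mm9), was at 1.35, 1.64 and 1.59 FPKM in the WT mice against 1.25, 0.958 and 0.918 FPKM in MED13cTg WAT. All MED13cTg mice were lower, and MED13cTg replicate 1 came within a small margin of WT replicate 1. The means were 1.53 ± 0.156 and 1.04 ± 0.179 FPKM (SD, n = 3), with a log2 fold change of -0.31 (standard error 0.31, 95% interval -1.08 to 0.46, adjusted p = 0.738). The alternatives gave log2 fold changes of -0.52 to -0.26 and adjusted p from 0.556 to 0.999. The epididymis sum was also lower in each MED13cTg library, at 16631, 346 and 100578 FPKM against 109086, 101369 and 130625 FPKM in the WT mice, and its part in the Fgf21 values was not tested.

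Atf4, a stress-induced transcription factor known to act on Fgf21 and on genes of amino acid synthesis, was at 148, 152 and 159 FPKM in the WT mice against 70.4, 121 and 132 FPKM in MED13cTg WAT. Its values did not overlap between the genotypes either (log2 fold change -0.55, standard error 0.30, adjusted p = 0.738). The stress response genes lay on both sides of 0: of the 12 tested in WAT, 4 had log2 fold changes above 0 and 8 below. Asns was at 1.04, Sesn2 at 0.49 and Ddit3 at 0.25, whereas Mthfd2 was at -1.39 and Cth at -1.27, each with overlap. A link between Atf4 and Fgf21 was not tested. The 250 bases upstream of the RefSeq start of Fgf21 are shown because it is the gene of the list that was lower in each MED13cTg WAT library, at chr7:45615491-45615740 on the minus strand of GRCm38.p6, with the core of the C/EBP-ATF element that ATF4 recognizes (TGATGNAA on either strand) in capitals.
Fgf21: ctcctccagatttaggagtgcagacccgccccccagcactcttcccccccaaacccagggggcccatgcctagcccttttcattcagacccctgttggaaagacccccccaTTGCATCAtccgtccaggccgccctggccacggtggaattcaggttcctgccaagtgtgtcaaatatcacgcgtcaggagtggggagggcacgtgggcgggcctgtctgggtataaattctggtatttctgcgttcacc
The single match reads on the opposite strand and begins 139 bases upstream of the start. The element core is found in 3.45% of the 32851 windows and in 1 of the 7 genes of the list that have a window. Gdf15, another gene induced by cellular stress, has 2 windows in the table and no match in either, which says only that these letters are not in these bases.

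Klb, the co-receptor β-Klotho that makes fat responsive to FGF21, was at 0.807, 2.65 and 1.31 FPKM in the WT mice against 0.332, 9.99 and 1.1 FPKM in MED13cTg WAT. Fgfr1, the receptor with which it pairs, was at 19.1, 20.7 and 20.2 FPKM in the WT mice against 4.88, 59.1 and 20 FPKM in MED13cTg WAT. Both were lowest in MED13cTg replicate 1 and highest in MED13cTg replicate 2, the libraries with the lowest and highest adipocyte sums, and MED13cTg replicate 3 lay inside the WT range. In ventricles Klb did not exceed 0.104 FPKM.

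Gdf15 was at 3.02, 0.667 and 1.25 FPKM in the WT mice against 0.756, 0.56 and 0.465 FPKM in MED13cTg WAT. WT replicate 1 was the highest in WAT, and MED13cTg replicate 1 was above WT replicate 2, so the groups overlapped. By same replicate number, a pairing taken from correlations and not from the labels, MED13cTg was lower in 3 of 3 WAT pairs. The same held for Fgf21, so 2 of the 9 genes tested were lower in all pairs and 0 higher, against 18.2% and 11.7% of all genes. With the replicate number as a block, Gdf15 had an adjusted p of 0.751 (limma). The log2 fold change was -0.64 (standard error 0.45, 95% interval -1.76 to 0.49, adjusted p = 0.738). It lay between -1.11 and -0.58 over the 13 alternatives that gave a fit. None of these left out WT replicate 1, since without it the mean of Gdf15 fell under 1 FPKM. Gfral, the brain receptor of GDF15, did not exceed 0.0906 FPKM in ventricles and 0.0608 FPKM in WAT. Ret, its co-receptor, was at 2.51, 2.11 and 2.3 FPKM in the WT mice against 0.69, 1.67 and 1.8 FPKM in MED13cTg WAT, without overlap (log2 fold change -0.50, standard error 0.34, adjusted p = 0.738).

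For 5 genes the MED13cTg mice lay on both sides of the WT mice. Igf1 was at 15.5, 31.5 and 17.9 FPKM in the WT mice against 4.58, 119 and 20.9 FPKM in MED13cTg WAT. Vegfb was at 45.4, 62.9 and 64.2 FPKM in the WT mice against 11.8, 173 and 59.4 FPKM in MED13cTg WAT. Fstl1 was at 31.1, 56.3 and 49.1 FPKM in the WT mice against 10.8, 105 and 51.1 FPKM in MED13cTg WAT. In each, MED13cTg replicate 1 was the lowest and replicate 2 the highest of the 6 libraries, and MED13cTg replicate 3 was inside the WT range.

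The same order held for Fgf1 and Il15 with a smaller excess in MED13cTg replicate 2. Fgf1 was at 14.8, 23.4 and 18.9 FPKM in the WT mice against 2.83, 27.6 and 16.9 FPKM in MED13cTg WAT. Il15 was at 5.76, 8.51 and 6.77 FPKM in the WT mice against 1.34, 10.4 and 6.63 FPKM in MED13cTg WAT. Relative to the WT mean, MED13cTg replicate 1 stood between 0.149 for Fgf1 and 0.238 for Fstl1, and MED13cTg replicate 2 between 1.45 for Fgf1 and 5.5 for Igf1. This order of libraries was found in 5 of the 9 genes tested and in 19.7% of all genes tested.

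Sums of marker lists ran in the same order. Fibroblast markers summed to 765, 1385 and 1101 FPKM in the WT mice against 265, 2866 and 1321 FPKM in MED13cTg WAT. Endothelial markers summed to 157, 252 and 195 FPKM in the WT mice against 33.1, 485 and 162 FPKM, and macrophage markers to 173, 365 and 326 FPKM in the WT mice against 112, 600 and 241 FPKM in MED13cTg WAT. Adipocyte, fibroblast, endothelial and macrophage sums were all lowest in MED13cTg replicate 1 and highest in replicate 2, and their part in the values of the 5 genes was not tested. With MED13cTg replicate 3 alone, 7 of the 9 genes lay inside the WT range, against 55.8% of all genes tested, and Fgf21 and Gdf15 lay below it.

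**Figure D4:**
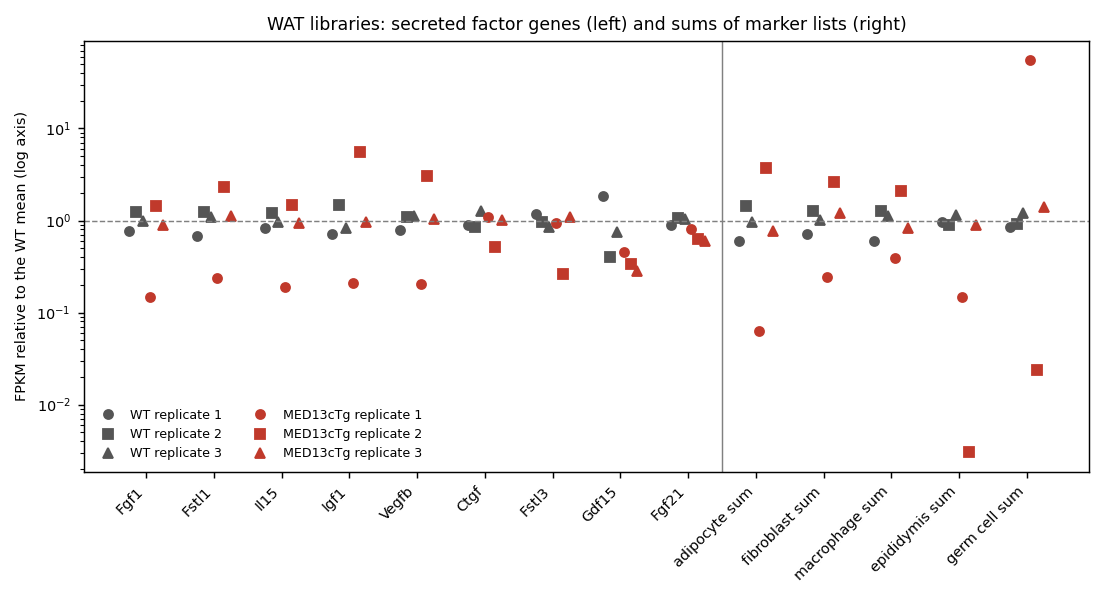
FPKM in each WAT library divided by the WT mean (log axis) for the 9 secreted factor genes above a mean of 1 FPKM (left of the line) and for sums of 5 marker lists (right), with grey for WT, red for MED13cTg and shapes for replicates. MED13cTg replicate 2 stands at 5.5 for Igf1 and 3.01 for Vegfb and MED13cTg replicate 1 at 0.212 and 0.205, on the same sides of 1 as in the adipocyte, fibroblast and macrophage sums.

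Ctgf and Fstl3 ran in another order in WAT. Ctgf was at 16.5, 15.7 and 23.6 FPKM in the WT mice against 20.3, 9.64 and 18.7 FPKM in MED13cTg WAT, and Fstl3 at 3, 2.43 and 2.17 FPKM in the WT mice against 2.38, 0.657 and 2.76 FPKM in MED13cTg WAT. Both were lowest in MED13cTg replicate 2, the library with the highest adipocyte sum and an epididymis sum of 346 FPKM, and the genotypes overlapped in both. Their log2 fold changes were -0.23 for Ctgf (95% interval -1.09 to 0.63, adjusted p = 0.802) and -0.35 for Fstl3 (95% interval -1.37 to 0.67, adjusted p = 0.752). Mstn was listed at 0 in 5 of 6 WAT libraries and at 0.0646 FPKM in MED13cTg replicate 1.

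The intervals in WAT were wide. That of Igf1 ran from 0.169-fold to 7.57-fold, that of Vegfb from 0.177-fold to 4.43-fold and that of Il15 from 0.257-fold to 2.13-fold, so that changes of these sizes in either direction lie within the intervals. In ventricles the interval of Il15 ran from 0.635-fold to 0.974-fold and that of Igf1 from 0.87-fold to 1.78-fold.

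Receptors, binding proteins, related ligands, signal transducers and genes of the integrated stress response that surround the 10 factors were listed as 75 pathway genes. In ventricles, 60 passed the filter, 0 were called at an adjusted p under 0.05, and 0 were higher and 1 was lower at an unadjusted p under 0.05 (limma). Of all genes tested, 0.0556% were called, and 1.69% were higher and 3.03% lower at an unadjusted p under 0.05. The median log2 fold change of the 60 was 0.0047. The gene with the unadjusted p was Furin, a protease that processes growth factor precursors, at 33.7, 45.8 and 39.1 FPKM in the WT mice against 25.9, 21.8 and 35.8 FPKM in MED13cTg ventricles, with overlap (log2 fold change -0.51, standard error 0.20, adjusted p = 0.966). In 2 of the 60 all MED13cTg mice lay above all WT mice, against 3.46% of all genes, and in 2 all lay below, against 5.85%. Beside Dip2a, the higher gene was Vegfc, a growth factor for lymphatic vessels, at 5.11, 5.57 and 5.12 FPKM in the WT mice against 5.84, 8.72 and 6.26 FPKM in MED13cTg ventricles (log2 fold change 0.33, adjusted p = 0.966). The lower genes were Smad4, the common mediator of TGF-β signalling, at 29, 25.9 and 24.1 FPKM in the WT mice against 22.3, 23.5 and 23.9 FPKM in MED13cTg ventricles, and Sesn2, a stress-induced sestrin, at 1.98, 1.98 and 1.92 FPKM in the WT mice against 1.34, 1.78 and 1.64 FPKM. Their log2 fold changes were -0.17 and -0.20, with an adjusted p of 0.966 each (limma). Under the filter, and so not tested, Inhba, a subunit of activin A, was at 0.526, 0.192 and 0.381 FPKM in the WT mice against 0.618, 0.822 and 0.816 FPKM in MED13cTg ventricles. Igfbp2, an IGF-binding protein, was at 0.0771, 0 and 0 FPKM in the WT mice against 0.155, 0.208 and 0.138 FPKM. Both were higher in all MED13cTg hearts.

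By role, 17 of 23 receptors, 10 of 14 binding and processing proteins, 12 of 16 related ligands, all 10 signal transducers and 11 of 12 stress response genes were tested in ventricles. The median log2 fold changes were -0.052, 0.15, 0.14, -0.15 and 0.06. Atf4 was at 67.1 to 84.6 FPKM in the WT mice against 65.6 to 81.5 FPKM in MED13cTg ventricles, with overlap. Insr, the more abundant of the receptors for IGF-1 and insulin in ventricles, was at 24.7, 32.2 and 29.9 FPKM in the WT mice against 22.3, 21.8 and 27.9 FPKM in MED13cTg ventricles, also with overlap. Lrp1, a receptor of CTGF, was at 15.5 to 19.3 FPKM in the WT mice against 14.2 to 18.4 FPKM in MED13cTg ventricles.

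In WAT, 65 of the 75 pathway genes were tested, 0 were called in either direction at an adjusted p under 0.05, and 0 passed an unadjusted p under 0.05 (limma). Of all genes tested, 0.0134% and 1.25% did. The median log2 fold change of the 65 was -0.12, with 23 above and 42 below 0. In 1 of the 65 all MED13cTg mice lay above all WT mice, and in 4 all lay below, against 4.88% and 7.8% of all genes. The higher gene was Acvr2a, a receptor of myostatin and activin, at 4.34, 4.25 and 4.24 FPKM in the WT mice against 7.3, 4.65 and 5.06 FPKM in MED13cTg WAT (log2 fold change 0.32, adjusted p = 0.738). Beside Atf4 and Ret, the lower genes were Tgfb1, at 47.3, 52.5 and 41.1 FPKM in the WT mice against 8.17, 31.6 and 36.4 FPKM in MED13cTg WAT, and Itgav, an integrin subunit that binds CTGF, at 9.55, 7.46 and 8.46 FPKM in the WT mice against 3.04, 5.94 and 7.33 FPKM. The log2 fold changes were -1.09 for Tgfb1 and -0.62 for Itgav, with an adjusted p of 0.738 each (limma). Itgb3, an integrin subunit under the filter and not tested, was higher in all MED13cTg mice, at 0.754, 0.802 and 0.833 FPKM in the WT mice against 1, 1.01 and 1 FPKM. The most abundant receptors of the other factors (Tgfbr1, Il15ra, Nrp1, Lrp1, Dip2a and Igf1r) overlapped between the genotypes in WAT, with adjusted p of 0.738 to 1.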

How the data were processed

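RNA-seq libraries were made by the authors with an Illumina TruSeq kit, from 1 µg of total RNA by the labels. Reads were aligned with TopHat (mm9 in the submitters' processing notes), and the deposited FPKM values come from Cufflinks at default settings; versions are not given in the sources used here. Locus starts count from 0 in the files, so 1 was added. The deposited tables also hold the authors' means and folds and 1 unnamed column of values, none of which was used here.

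In each tissue, entries whose mean over the 6 libraries reached 1 FPKM were tested on log2(FPKM + 1) with limma 3.58.1 (R 4.3.3; lmFit, eBayes with trend) and Benjamini-Hochberg adjustment at 0.05. Fold changes on this scale understate those of low genes. The steps were tested on simulated data with the WT spread in both genotypes, which does not cover the wider spread of several genes in MED13cTg WAT. Replicate numbers come from the labels. Deviations of same-numbered libraries correlated at 0.347, 0.304 and 0.144 in WAT, so same-number pairs were also counted there. In ventricles they correlated at 0.0855, -0.192 and 0.14, and no pairs were counted. In both genotypes the WAT adipocyte sum rose from replicate 1 through 3 to 2, and its part in these correlations was not tested. The labels state no pairing, and the main fits were unpaired in both tissues. The replicate number was fitted as a block as an alternative. Other alternatives changed the pseudocount, filter, scaling, trend, weights and libraries. Comparisons within the library clusters and within same-number pairs were added after seeing the data.

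Relative depth was the modal between-library ratio of low values (up to 0.15 FPKM) of the same entry. The p-values measure the spread between the libraries of these littermates, with any differences in dissection and library preparation included. Named are all 10 genes, Med13, the most abundant receptor of each factor, and up to 5 tested pathway genes per direction and tissue that did not overlap between genotypes. Il2rb, Flt1, Klb, Gfral, Cyr61, Nov, Wisp1, Wisp2, Tgfb2, Tgfb3, Furin, Inhba, Igfbp2, Itgb3, Nppa, Myl7, in ventricles Acvr2a, Atf4 and Tgfb1, and in WAT Asns, Sesn2, Ddit3, Mthfd2, Cth and Jak3 were added after their values were seen. The members and lists were chosen with earlier results of these data known. Tables and plots were made in Python 3.11.15 (pandas 2.3.3, matplotlib 3.10.9). Promoters are those of RefSeq for GRCm38.p6.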

Additional observations from a re-analysis of the deposited data

How the results depend on the processing

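No secreted factor and no pathway gene was called in either tissue under any of the 15 alternatives, the replicate block included. Gdf15 was under the filter without WT replicate 1 in either tissue, and so was not fitted there. Over all genes tested, the 3 higher calls in ventricles became 19 without a filter, 7 with array weights and 3 to 6 when 1 library was left out. The 4 lower calls became 12, 8 and 0 to 4, with 1 at a filter of 5 FPKM and 1 with the replicate block. In WAT the 0 higher calls became 17 without both MED13cTg libraries that stand apart and 0 to 2 with 1 library left out, and the 2 lower calls became 1 without a filter, 0 with array weights, 0 with the replicate block and 0 to 4 with 1 library left out. Array weights had not converged in WAT.

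The median log2 fold change of the secreted factors in ventricles was 0.0042 with array weights and -0.27 to -0.051 with 1 library left out. Of all 10, tested or not, the count lower in all MED13cTg ventricles was 8 within the cluster of WT replicate 1 and 4 within the other. It was 3 to 4 with 1 library left out, and the count higher was 1 within each cluster and 0 to 1. The 8 include Fgf21, at 0.101 FPKM in WT replicate 1 against 0. Of the 7 tested, 5 and 3 were lower within the clusters, against 36.7% and 40.8% of all genes tested. In WAT the count lower was 2 without both libraries that stand apart, 2 within pairs of the same replicate number and 1 to 2 with 1 left out. Within pairs 18.2% of all genes tested were lower. With libraries left out, in either tissue, the share of all genes was not counted, and fewer libraries separate more easily.

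Signs of log2 fold changes turned, as follows, and the cause was not tested. In ventricles, Gdf15 was 0.0042 with array weights, Vegfb 0.043 with quantile normalization, 0.07 with array weights and -0.24 to 0.10 with 1 library left out, and Fstl1 -0.0066 to 0.33 with 1 left out. In WAT with array weights, Fstl1 was 0.29, Il15 0.0052 and Vegfb 0.32. Without both libraries that stand apart, Fstl1 was 0.21, Fstl3 0.095, Vegfb 0.063 and Ctgf 0.027, with MED13cTg replicate 3 assumed to vary like the WT mice. With 1 library left out, Fgf1 ran from -1.25 to 0.20, Fstl1 from -0.86 to 0.72, Fstl3 from -0.57 to 0.018, Il15 from -0.91 to 0.23, Igf1 from -0.97 to 1.24, Vegfb from -1.06 to 0.83 and Ctgf from -0.42 to 0.084. The largest shift of each of these 7 genes came from leaving out MED13cTg replicate 1 or 2. Values under 1 FPKM rest on few fragments, and an exact permutation test of 3 against 3 mice cannot go below p = 0.1.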

Other observations

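In WAT, MED13cTg replicates 1 and 2 lay on the same side of the WT mice for 11 of the 65 pathway genes tested while MED13cTg replicate 3 lay within the WT range, 7 below it and 4 above, against 11.3% and 7.46% of all genes tested. Neither part of the 65 was larger than the share of all genes. The genes named here were picked out after their values were seen. Igf1r, the receptor of IGF-1, was at 27.7, 17.6 and 21.2 FPKM in the WT mice against 5.76, 4.02 and 24.9 FPKM in MED13cTg WAT. Mthfd2, a mitochondrial folate enzyme, was at 68.2, 47.5 and 59.4 FPKM in the WT mice against 31.2, 5.16 and 55.3 FPKM in MED13cTg WAT. Asns, asparagine synthetase and a target of ATF4, went the other way, at 14.5, 22.7 and 16.2 FPKM in the WT mice against 54.3, 50.1 and 18.3 FPKM in MED13cTg WAT. The epididymis sum of MED13cTg replicates 1 and 2 was 16631 and 346 FPKM against at least 101369 FPKM in WT; its part in these values was not tested.

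Jak3, a kinase of the IL-15 receptor, shares its entry with Insl3, a hormone gene of testicular Leydig cells. The joint entry, which is among the 4 above the WT mice, was at 18, 11.8 and 11.6 FPKM in the WT mice against 1160, 23.4 and 15 FPKM in MED13cTg WAT. MED13cTg replicate 1 is also the library with a germ cell sum of 13638 FPKM.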
